A study of Mus musculus with 2 samples.

Results

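The immunity-related GTPases (IRG) and the guanylate-binding proteins (GBP) are families of interferon-inducible GTPases, and 8 of their genes were examined here in mouse epidermis: Irgm1, Irgm2, Igtp and Iigp1 of the IRG family and Gbp2, Gbp3, Gbp6 and Gbp7 of the GBP family. They were chosen by name, because their signals were higher in the knockout than in the control, and every probe whose RefSeq accession maps to them was taken. This gave 9 of 26690 named probes and 8 of 18206 named genes. Since the comparison itself chose them, their differences are a description and were not tested.

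RNA came from epidermis in the steady state, peeled from skin incubated in ammonium thiocyanate. The control genotype was Nfkbiz flox/flox, in which loxP sites flank part of Nfkbiz and no recombinase is present. The knockout genotype was Nfkbiz flox/flox; K5-cre, which carries the same floxed copies and a Cre recombinase under the keratin 5 promoter of basal keratinocytes. Nfkbiz encodes IκBζ, a nuclear IκB protein that works with NF-κB on a subset of its target genes. Each genotype was measured on 1 single-colour Agilent array. Neither the age of the mice nor how many gave each RNA is stated in the sources used here. Epidermal cells that neither used the keratin 5 promoter nor descend from cells that did keep the gene.

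In mouse cells, interferon gamma binds its receptor, the kinases Jak1 and Jak2 pass the signal on to transcription factors, and Irf1, a factor induced on the way, helps to switch on IRG and GBP genes. The proteins gather on membranes around intracellular pathogens such as Toxoplasma and help to break them open. Irgm1, Irgm2 and Igtp (also called Irgm3) are regulatory IRG proteins that sit on the cell's own membranes and hold effector IRG proteins such as Iigp1 (Irga6) in an inactive state. GBP proteins are larger GTPases that assemble on the same vacuoles and on bacteria.

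The promoters of these genes are shown first. That the genes differed in the same direction follows from how they were chosen, and nothing is read from it. RefSeq promoter windows of build GRCm38.p6, each from 250 bases before to 50 bases after a transcript start, were found for 6 of the 8 genes (7 windows, with a pair for Gbp3). They were searched on both strands for the interferon-stimulated response element core GAAANNGAAA (TTTCNNTTTC on the other strand), which interferon regulatory factors such as Irf1 bind. The 6 sequences below hold the matches in capitals, with 20 bases on each side where the window before the start allows, and are written 5′ to 3′ in the direction of the gene.
Irgm1, chr11:48871421-48871470, minus strand: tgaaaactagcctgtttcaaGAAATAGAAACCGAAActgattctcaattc
Irgm2, chr11:58214893-58214942, plus strand: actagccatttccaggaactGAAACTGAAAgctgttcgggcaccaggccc
Igtp, chr11:58199502-58199551, plus strand: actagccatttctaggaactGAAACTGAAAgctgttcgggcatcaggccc
Gbp2, chr3:142620584-142620633, plus strand: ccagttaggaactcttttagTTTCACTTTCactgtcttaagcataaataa
Gbp3, chr3:142559979-142560034, plus strand: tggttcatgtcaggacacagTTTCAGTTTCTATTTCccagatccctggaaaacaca
Gbp7, chr3:142530263-142530312, plus strand: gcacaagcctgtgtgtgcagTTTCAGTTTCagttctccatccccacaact

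The core stood in the windows of 6 of 6 genes, in 6 of 7 windows, against 3.44% of all 32851 promoter windows of the same length (1131 windows) and 3.35% of those of protein-coding genes. The other Gbp3 window held none of the motifs searched. In the IRG genes printed above the match read GAAA in the direction of the gene, and in the GBP genes printed above it lay on the opposite strand. The first base of the match lay 30 bases before the start in Irgm1, 64 in Irgm2, 34 in Igtp, 59 in Gbp2, 45 in Gbp3 and 53 in Gbp7. Irgm1 and Gbp3 each held a further match that overlapped the first, starting 24 and 39 bases before the start.

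The gamma-activated site TTCNNNGAA, an element of genes that interferon gamma induces, which reads the same on both strands, stood in the windows of 3 of the 6 genes, against 8.30% of all windows. It began 75 bases before the start in Irgm2, 45 in Igtp, and 106 and 87 in Gbp7. In Irgm2 and Igtp it lay just before the response element, and the pair did not overlap. A kappa B site of the form GGGANNTTCC (GGAANNTCCC on the other strand), bound by NF-κB dimers, stood, among these genes, in the window of Gbp2, from base 8 to base 17 after the start, against 1.47% of all windows. These letters mark possible sites and do not show that a factor binds there.

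The Irgm2 and Igtp promoters were the most alike of the 15 pairs by aligned length. Over their best local alignment, 194 of 215 bases (90.2%) were identical, with a longest shared run of 55 bases, and Irgm1 aligned to Irgm2 over 84 bases at 72.6%. The 250 bases before each start are given to show this likeness, with the response element core in capitals.
Igtp, chr11:58199306-58199555, plus strand: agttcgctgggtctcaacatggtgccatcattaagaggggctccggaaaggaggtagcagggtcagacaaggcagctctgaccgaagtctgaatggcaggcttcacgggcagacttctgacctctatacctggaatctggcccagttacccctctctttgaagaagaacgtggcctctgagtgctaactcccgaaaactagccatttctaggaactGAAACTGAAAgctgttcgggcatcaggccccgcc
Irgm2, chr11:58214727-58214976, plus strand: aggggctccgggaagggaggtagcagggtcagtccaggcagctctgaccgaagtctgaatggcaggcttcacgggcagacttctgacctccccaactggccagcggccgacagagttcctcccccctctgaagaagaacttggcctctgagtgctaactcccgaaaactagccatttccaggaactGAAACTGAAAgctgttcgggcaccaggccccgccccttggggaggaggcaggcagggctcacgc

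**Figure D1:**
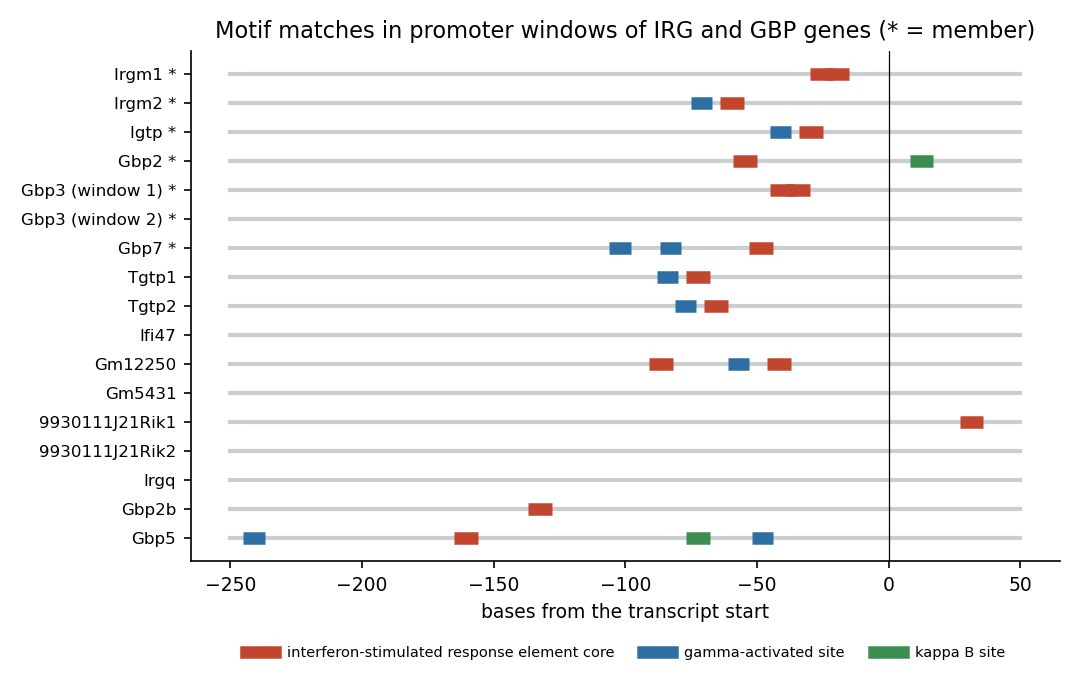
Positions of motif matches in the promoter windows of IRG and GBP genes, in bases from the transcript start (vertical line), with 1 grey line per window from 250 bases before to 50 after it. Red, blue and green blocks are the interferon-stimulated response element core, the gamma-activated site and the kappa B site, and an asterisk marks the genes examined here. In the 6 such genes the red blocks start between 64 and 24 bases before the start, and the other Gbp3 window holds no block.

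Signals below are processed signals of a probe on 1 array, after background subtraction, with the scanner software's error, and differences are of log2 signals scaled to the 75th percentile of each array, knockout minus control. That percentile was 194 for the control and 227 for the knockout array, 56.2% and 56.3% of probes were well above background, and no spot was saturated. The lowest signal well above background was 12.7 for the control and 12.1 for the knockout array. Each group is a single array, so differences have no replicate check and no p-value is given. The ± of a log2 difference is a standard error from the scanner software's error model, which covers technical error on these arrays and not the spread between mice. Of 18206 genes, 12409 were measured on both arrays, 584 on the knockout array alone, 484 on the control array alone and 4706 on neither. The median log2 difference over genes measured on both arrays was -0.05, and the central 90% lay between -0.95 and 0.81. The targeted gene Nfkbiz had a control signal of 3100 and a knockout signal of 1760, a log2 difference of -1.04 ± 0.20, or -0.70 when the arrays were scaled to their medians. The sources used here do not say whether its probe lies in the deleted part.

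All 3 regulatory IRG genes could be measured in both genotypes, and each was more than 2-fold higher in the knockout. Irgm2 had a signal of 86.1 ± 9.50 in the control and 639 ± 64.0 in the knockout. Its log2 difference of 2.67 ± 0.21 is 6.34-fold and ranked 17 of 12409 genes. Igtp, whose product lies on the endoplasmic reticulum and lipid droplets, had signals of 203 ± 20.5 and 1090 ± 109, a log2 difference of 2.20 ± 0.20 (4.59-fold). The errors of the signals did not overlap for either gene. In RNA from a whole tissue, a change in the number of cells of a type and a change in RNA per cell cannot be told apart. This holds for each difference here and below.

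Irgm1, the regulatory IRG protein of the Golgi and of lysosomes, was read by a pair of probes. Probe A_51_P262171 gave 32.9 ± 4.17 in the control and 169 ± 17.0 in the knockout, a log2 difference of 2.13 ± 0.23 (4.39-fold). Probe A_52_P126158 gave 34.6 ± 4.71 and 148 ± 15.1, a log2 difference of 1.87 ± 0.25 (3.66-fold). The gap between the differences of both probes was no larger than the sum of their standard errors. The spot of the first probe had 6 spots marked non-uniform within 3 rows and columns of it, and 4 neighbours at least 4-fold higher in the knockout. The spots of the other probe and of the other 7 genes had 0 of either. Around the spots of all 9 probes the median log2 difference of neighbouring spots lay between -0.25 and 0.00.

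Iigp1, the effector that the regulators hold in check and that vesiculates the vacuole membrane, was well above background on the knockout array alone. It read 4.34 ± 3.26 in the control, not well above background, and 171 ± 17.4 in the knockout. Against the lowest signal well above background it was at least 11.5-fold higher, a bound of 3.52 in log2 that ranked 3 of the 584 genes measured on the knockout array alone. Under normexp background correction with an offset of 50, which draws low signals together, the same bound was 1.62.

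Among the GBP genes, Gbp2 was measured on both arrays. Its product carries a lipid anchor and coats the vacuoles of Toxoplasma. It read 72.5 ± 7.70 in the control and 386 ± 38.7 in the knockout, a log2 difference of 2.19 ± 0.21 (4.55-fold). The errors of both signals lay far apart.

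Gbp3, Gbp6 and Gbp7 were dim, and were well above background on the knockout array alone. Gbp3 gave 7.01 ± 2.76 in the control and 27.6 ± 3.68 in the knockout, at least 1.86-fold higher. Gbp7, whose product is known to bring oxidase and autophagy proteins to vacuoles, gave 4.75 ± 2.76 and 19.9 ± 3.19, at least 1.34-fold higher. Gbp6 gave 3.84 ± 3.84 and 18.2 ± 3.84, at least 1.22-fold higher if the error of the knockout signal is left out. Its plain log2 difference was 2.02 ± 1.47. These 3 bounds were below 2-fold, and the one of Gbp3 passed it under median scaling (log2 bound 1.24), quantile normalization (1.21) and cyclic loess (1.25). Gbp6 has a near-identical neighbour, Gbp10, and probe sequences were not used here, so how far a probe also reads a relative was not tested.

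**Figure D2:**
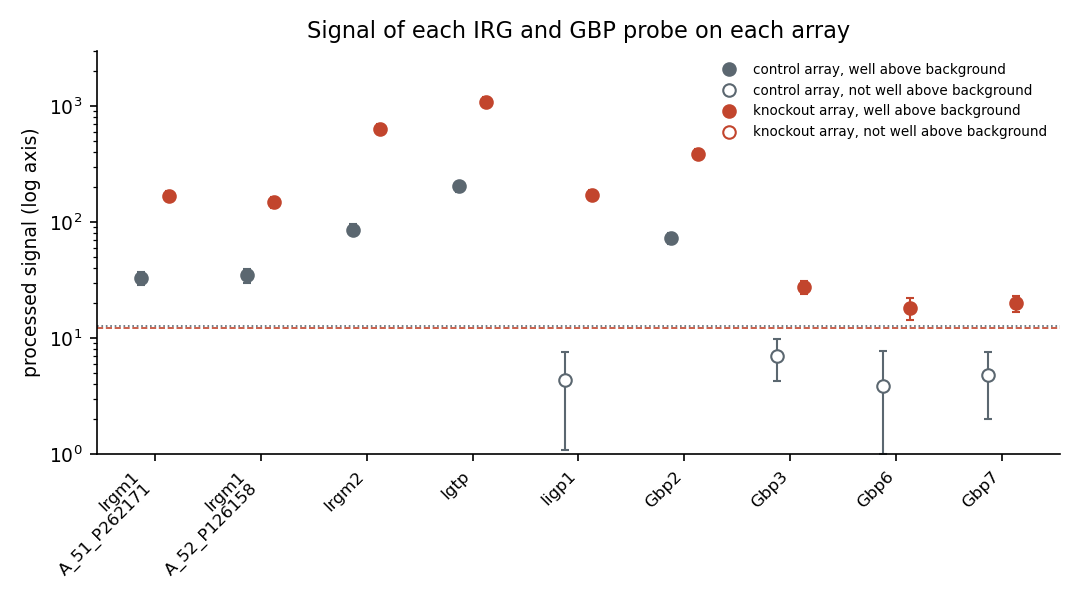
Processed signal (log axis) of the 9 probes of the 8 genes on the control array (grey) and the knockout array (red), 1 array each, with bars for the scanner software's error. Open circles are signals not well above background, the horizontal lines mark the lowest signal well above background on each array (12.7 and 12.1), and bars that reach below 1 are cut there. For each probe the red circle lies above the grey one.

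Counted together, 4 of the 8 genes had values in both genotypes, and 4 of these 4 were at least 2-fold higher, where 370 of 12409 genes (2.98%) were. The other 4 were measured on the knockout array alone, as were 3.21% of all named genes, and 1 of them was at least 2-fold higher by its bound, where 97 of 584 (16.6%) were. Since the genes were chosen on this comparison, nothing is read from these shares. The 4 differences lay between 2.13 and 2.67, with a median of 2.19, and the median over all 8 genes with the dim ones at their bounds was 2.16.

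**Figure D3:**
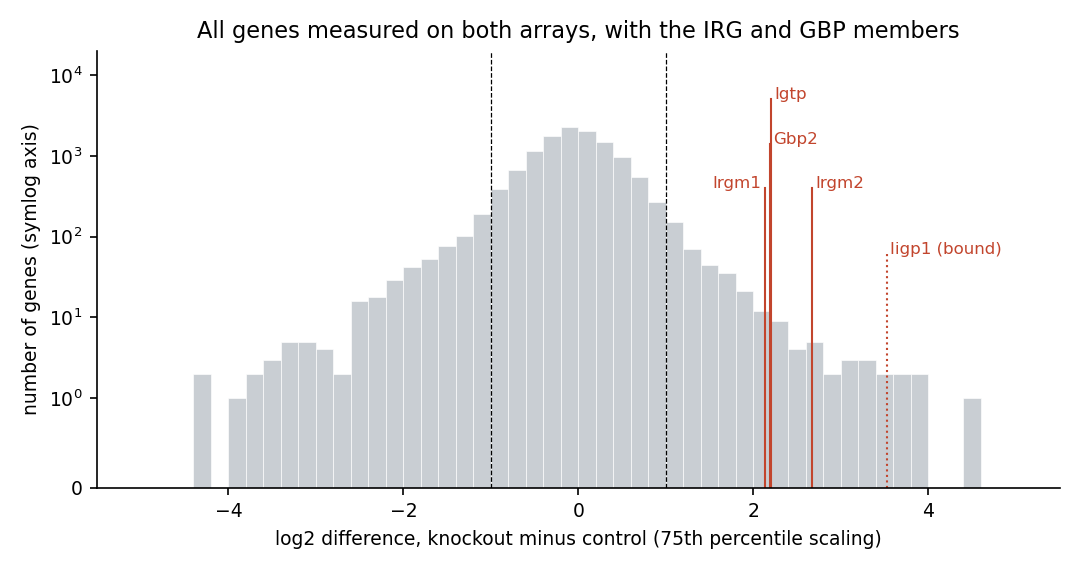
Number of genes (symlog axis) by log2 difference, knockout minus control after 75th percentile scaling, for 12409 genes measured on both arrays, with dashed lines at 2-fold in each direction. Red lines mark Irgm1, Gbp2, Igtp and Irgm2, between 2.13 and 2.67, and the dotted line marks the bound of Iigp1 at 3.52. The height of a red line carries no value.

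Further members of both families gave mixed values. Of 20 further IRG and GBP genes listed, 13 had a named probe. On both arrays 3 were measured and 0 of these were 2-fold apart, where 2.98% of all genes were 2-fold higher and 4.46% lower. Irgq differed by 0.12 ± 0.21, Gbp8 by 0.20 ± 0.35 and Gbp9 by -0.56 ± 0.35. Their median of 0.12 stands against 2.19 for the 4 genes examined here, a gap that the choice of those genes fixes in part.

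Of the further genes, 4 were well above background on the knockout array alone, where 3.21% of all named genes were. The IRG gene 9930111J21Rik2, which lies in the chromosome 11 cluster of Irgm1, gave 10.5 in the control and 44.7 in the knockout, at least 3.01-fold higher. Ifi47 (Irgd), an effector of the same cluster, gave 4.39 and 21.9, at least 1.47-fold higher. Tgtp1 (Irgb6), another effector there with a near-identical copy in Tgtp2, gave 2.95 and 20.5, at least 1.38-fold higher. Gvin1, a very large GTPase, gave 8.17 and 15.7, at least 1.06-fold higher. Another Gvin1 probe gave 17.2 and 15.3, not well above background on either array. A further one gave 3.76 and 17.6, well above background in the knockout alone. So 1 of these 4 bounds passed 2-fold, where 97 of the 584 genes measured on the knockout array alone (16.6%) did. Probes of a relative did not always read alike: the other Tgtp1 probe gave 3.34 in the control and 3.04 in the knockout, not well above background on either array, and the other Irgq probe gave 16.5 and 7.11, well above background in the control alone. The other Gbp8 probe gave 7.99 in the control and 6.97 in the knockout, and the other Gbp9 probe 6.93 and 7.71. Neither probe was well above background on either array.

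The direction was not shared by every relative. Gbp5, which promotes inflammasome assembly, was well above background on the control array alone, with 20.2 against 10.8, at least 1.95-fold lower on the knockout array. Gm12250, Gm5431, Irgc1, Gbp2b and Gbp4 were not well above background on either array. Of the promoters of 10 further genes with a window, 6 held the response element core and 4 the gamma-activated site. Among them were Gbp5, whose match began 165 bases before the start, and Tgtp1, where the gamma-activated site and the core began 88 and 77 bases before the start, in the same order as in Irgm2 and Igtp. The Gbp5 window also held a kappa B site that began 77 bases before the start. In Gm12250, of the cluster of Igtp and Irgm2, the core lay on the opposite strand, unlike in Igtp and Irgm2. The Tgtp1 and Gbp5 matches are printed for comparison with those above.
Tgtp1, chr11:48992294-48992343, minus strand: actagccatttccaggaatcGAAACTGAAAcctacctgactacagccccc
Gbp5, chr3:142496749-142496798, plus strand: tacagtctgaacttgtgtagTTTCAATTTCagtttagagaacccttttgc

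Genes next to the clusters that are neither IRG nor GBP genes were, where measured on both arrays, mostly within 2-fold, as were most of all genes. Beside Irgm1, Trim7 differed by 0.17 and Trim41 by 0.53. Beside Igtp and Irgm2, Mrpl22 differed by -0.28, Gemin5 by -0.99 and Zfp692 by -0.73. Beside Iigp1, Smim3 differed by -0.16 and Dctn4 by -0.04, and beside the cluster of Gbp2, Gbp3 and Gbp7, Pdlim5 by -0.07, Kyat3 by -0.19 and Gtf2b by -0.06. Beside Gbp6, Zfp951 differed by -0.18, while Lrrc8b, a volume-regulated channel subunit, was lower on the knockout array at 15.8 against 46.7 (3.46-fold). No neighbour measured on both arrays was 2-fold higher, where 2.98% of all genes were 2-fold higher and 4.46% lower. Olfr1396, Olfr56, Chsy3, Minar2, Bmpr1b and Abcg3 were not well above background on either array.

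Upstream of the GTPases, genes of the interferon gamma pathway differed in both directions. Ifng itself was well above background on the knockout array alone, with 29.83 against 14.33, 1.78-fold higher (log2 difference 0.83 ± 0.13). Its receptor chains and Jak1 were within 2-fold: Ifngr1 had 12200 on the knockout array against 14500 (log2 difference -0.48), Ifngr2 2290 against 2020 (-0.05) and Jak1 4760 against 5370 (-0.40). Jak2 was 2.93-fold lower, with 312 against 781 (-1.55 ± 0.20), and its other probe gave -1.20.

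Irf1 had 6110 on the knockout array against 618 on the control array, a log2 difference of 3.08 ± 0.20 (8.45-fold), and its other probe gave 3.22. Irf8, an interferon regulatory factor of myeloid cells, had 81.7 against 31.5 (1.15 ± 0.24). Irf9, a factor of the type I interferon response, had 943 against 403, 1.9998-fold and so not counted as 2-fold, with 0.45 on its other probe. The pathway list, as reported here, had 11 genes measured on both arrays. Of these, 2 passed 2-fold upward and 1 downward, where 2.98% and 4.46% of all genes did, and their median was 0.39. The feedback inhibitors Socs1 and Socs3 differed by 0.39 and 0.97.

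Other genes that interferon gamma induces were mostly higher in the knockout. Among 18 with values in both genotypes, 4 were at least 2-fold higher, against 2.98% of all genes, and 0 were 2-fold lower, against 4.46%. Of the 18, 14 lay above 0, and the median was 0.50, against -0.05 over all genes. Cxcl9, a chemokine for T cells, had 76.1 on the knockout array against 18.9 on the control array, 3.44-fold higher (1.78 ± 0.32). The immunoproteasome subunits were higher together, Psmb8 at 2280 against 900 (2.17-fold), Psmb9 at 2830 against 1140 (2.12-fold) and Psmb10 at 1830 against 742 (2.11-fold). The peptide transporters Tap1 and Tap2 differed by 0.61 and 0.89, Cxcl10 by 0.90, and the class II chaperone Cd74 by 0.75. Ciita, the class II activator, was at least 1.42-fold higher. On the other side, Cd274 differed by -0.67, Gch1 by -0.42 (0.12 on its other probe) and Ido1 by -0.41.

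Type I interferon-stimulated genes, which interferons alpha and beta induce through overlapping sites, also held members past 2-fold. Of 17 with values in both genotypes, 6 were at least 2-fold higher, against 2.98% of all genes, and 0 were 2-fold lower, against 4.46%. Of the 17, 13 lay above 0, and the median was 0.52, against -0.05 over all genes. Rtp4 had 132 on the knockout array against 32.5 on the control array (log2 difference 1.80). Oas1a had 67.4 against 19.5 (1.56) and Isg15 257 against 85.9 (1.35). Eif2ak2, Usp18 and Xaf1 differed by 1.36, 1.08 and 1.03. Below 0 lay Cmpk2 (-0.49), Rsad2 (-0.45), Oas3 (-0.25) and Ifitm3 (-0.15). Ifit2, Ifit3 and Ifi44, members of the same list, were not well above background on either array. The response element core stood in the promoters of 11 of 18 of these genes with a window, and in 2 of 13 of the other interferon gamma targets.

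The interferons and the factors that induce interferon gamma differed among themselves. The T helper 1 factors Tbx21 and Stat4 were well above background on the knockout array alone: Tbx21 had 64.0 against 3.1, at least 4.31-fold higher, and Stat4 57.8 against 7.11, at least 3.89-fold higher. A bound past 2-fold was found for 16.6% of the 584 genes measured on the knockout array alone. The keratinocyte interferon Ifnk was well above background on the control array alone, with 36.9 against 18.2, 2.37-fold lower (-1.25 ± 0.39). Of the 484 genes measured on that array alone, 37.4% passed 2-fold by their bound. Ifnl3, also on the control array alone, had 20.9 against 17.8, a log2 difference of -0.46 ± 0.46. Ifnb1 and Ifne were not well above background on either array. Of 9 genes of this list measured on both arrays, 0 were 2-fold apart, where 2.98% of all genes were 2-fold higher and 4.46% lower. The median of the 9 genes was 0.26.

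**Figure D4:**
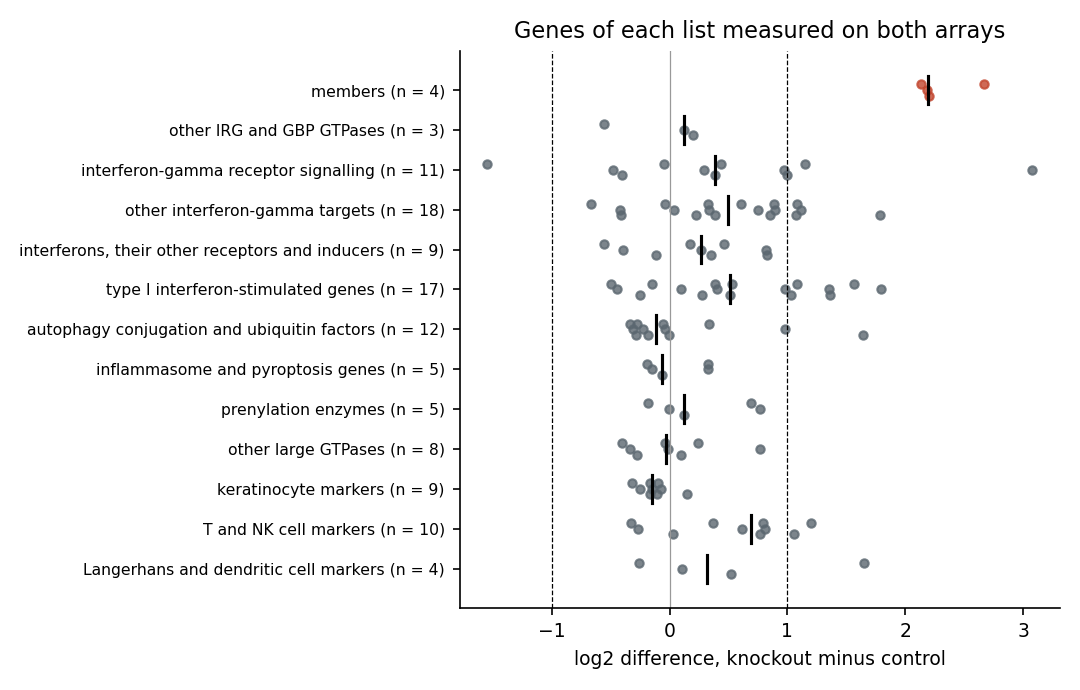
Log2 difference, knockout minus control, of each gene measured on both arrays in the 8 genes examined here (red) and in 12 other lists (grey), with n the genes measured on both arrays, black bars for medians and dashed lines at 2-fold in each direction. The 4 red points lie between 2.13 and 2.67, and the point furthest right, at 3.08, is Irf1. Lists of the remaining cell types are not drawn.

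Markers of the cells that epidermis holds were set beside these values. Of 9 keratinocyte markers 0 were 2-fold apart, where 2.98% of all genes were 2-fold higher and 4.46% lower. The median of the keratinocyte markers was -0.15, or 0.20 under median scaling and 0.07 under normexp. Their summed scaled signal was 1768 in the control and 1586 in the knockout. Of 13 T and NK cell markers, 10 were measured on both arrays and 8 of these lay above 0. Their median was 0.69, against -0.05 over all genes. Klrd1 was 2.08-fold higher, as was Cd247 at 2.29-fold, though its other probe gave -0.33. Cd3e differed by 0.37 and Cd3d by 0.03. Below 0 lay Gzmb (-0.33) and Thy1 (-0.27, and -1.24 on its other probe), and Cd4, Cd8a and Ncr1 were not well above background on either array. The summed scaled signal of the list was 21.3 and 24.8, or 10.4 and 15.8 without Thy1. Of 6 Langerhans and dendritic cell markers, 4 were measured on both arrays with a median of 0.31 (0.11 with Ccr7 at its bound), the sum was 3.57 and 6.30, and Zbtb46 was not well above background on either array. Cd207 (langerin) had 608 against 166, 3.13-fold higher, and without it the sum was 2.71 and 3.63. Csf1r differed by 0.52, Itgax by 0.11 and Flt3 by -0.26. The part of these cells in the differences of the GTPases was not tested.

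Markers of other cell types had medians below 0 after 75th percentile scaling, and those of monocytes and macrophages and of fibroblasts lay above 0 under median scaling. Of 6 monocyte and macrophage markers measured on both arrays, C1qa was 2.18-fold lower and the median was -0.28, or 0.07 under median scaling, with sums of 35.2 and 25.2. Ly6c2 made up most of these sums, which were 2.83 and 3.52 without it. Adgre1 and Cd14 each differed by 0.47. Of these markers Cd163, Mrc1, Lyz2 and Ccr2 were not well above background on either array. Of 3 endothelial markers measured on both arrays, Cldn5 differed by -0.34 and Vwf and Egfl7 were lower by 5.31-fold and 2.17-fold, and Emcn, on the control array alone, by at least 5.38-fold. Tek (19.2 against 4.6, at least 1.29-fold higher) and Esam (16.2 against 13.8) were well above background on the knockout array alone, and Pecam1, Cdh5, Kdr and Tie1 were not well above background on either array. Of 5 dermal fibroblast markers 0 were 2-fold apart (median -0.32, or 0.03 under median scaling), where 2.98% of all genes were 2-fold higher and 4.46% lower. At least 2-fold lower were 3 of 3 melanocyte markers measured on both arrays (median -2.05) and 3 of 4 of skeletal muscle (-2.46). For red blood cells 3 of 3 were (-3.95), where 4.46% of all genes were 2-fold lower. Of further melanocyte markers, 1 was on the control array alone, with a bound below 2-fold, and 1 was not well above background on either array. Of muscle markers on the control array alone, 2 of 2 passed 2-fold by their bound, as did 37.4% of such genes.

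The genes measured on both arrays that lay nearest to the median of the 4 GTPases in log2 difference and in mean scaled level were Cdkn2aip, Rasl11b and Sfi1, at log2 distances of 0.18, 0.20 and 0.21. Cdkn2aip had 482 on the knockout array against 79.4 on the control array, Rasl11b 493 against 80.1 and Sfi1 440 against 73.5. Likeness over 2 arrays rests on 1 difference and 1 level per gene.

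Irgm1, Irgm2, Igtp and Gbp2 kept a difference of at least 2-fold under each scaling tried. Irgm1 lay between 1.23 and 2.48 in log2, Irgm2 between 1.96 and 3.01, Igtp between 2.02 and 2.55 and Gbp2 between 1.56 and 2.53. The lowest value of each came from normexp and the highest from median scaling, which adds 0.35 to every gene.

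**Figure D5:**
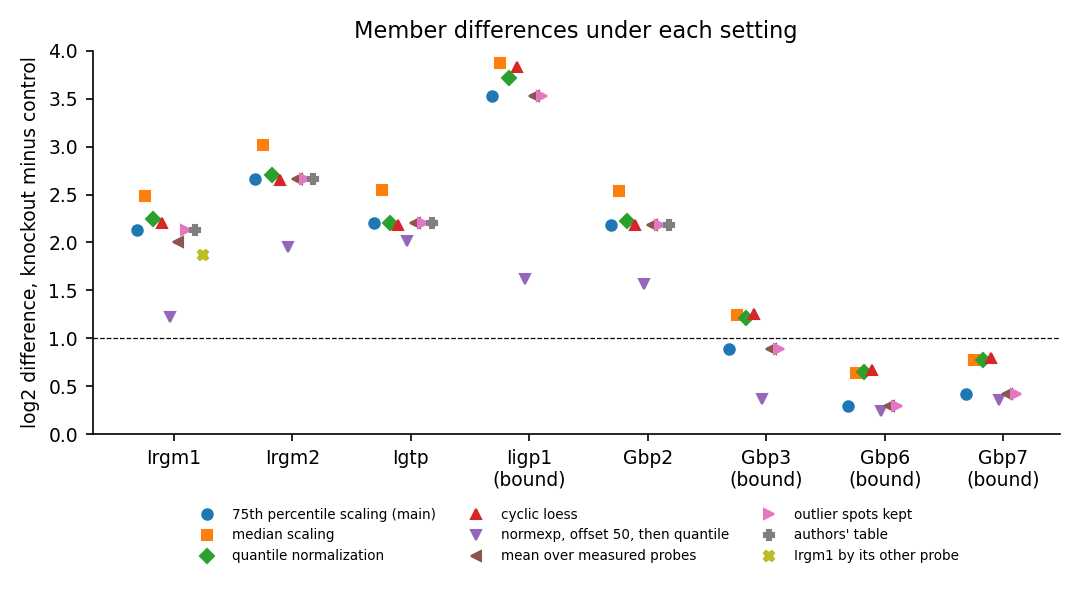
Log2 difference, knockout minus control, of each of the 8 genes under 9 ways of making the values (symbols), with bounds for the 4 genes that were not well above background on the control array and a dashed line at 2-fold. Irgm1, Irgm2, Igtp, Gbp2 and the bound of Iigp1 stay above the line under each setting drawn for them, and the bounds of Gbp6 and Gbp7 stay below it.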

How the data were processed

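RNA of 2 epidermis samples, 1 per genotype, was hybridised to single-colour Agilent arrays. Per the file headers, Agilent Feature Extraction 10.7.3.1 read the spots of a design annotated on mm9, and both arrays have the same scan time. The deposited intensity of a spot is background-subtracted and detrended within the array, per the file headers. Deposited marks (0 or 1) give spots well above background, saturated or outliers. A log2 table deposited by the authors served as an alternative: its columns sum to 0 for each probe (largest absolute sum 1e-06), their medians are 0.14 and -0.14, and its knockout minus control difference has a Pearson r of 1.00 with the scanner data, offset by a median of -0.00, which settles scale, centring and direction.

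Control spots and outlier spots were removed, spots of a probe averaged, and log2 signals centred on the 75th percentile over 41174 probes of each array. A RefSeq table (GRCm38.p6) named 26690 probes. A gene was represented by the probe measured on most arrays, then by the highest mean scaled signal. A gene not well above background on an array has only a bound. Its bright signal is set against either the dim signal or the lowest one well above background, whichever is higher. The result is written as at least N-fold. Against the dim signal it is the plain difference, given with its ± for Ifng, Ifnk and Ifnl3. A bound leaves out the error of the bright signal. Genes were called at 2-fold, with no test. Summed scaled signals add, over markers measured on both arrays, the signal divided by the 75th percentile. Promoters and their coordinates come from RefSeq windows of GRCm38.p6, not from the build of the arrays. Other scalings (to the median, quantile, cyclic loess), normexp with an offset of 50 and the alternatives in the closing section were tried. Normexp used median spot signals without spots marked non-uniform, a choice made after seeing the data. The code was tested on simulated data.

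A gene of the interferon gamma pathway is not reported here. The genes and the lists were chosen with earlier results of these data known. Named genes are the 8 GTPases, Nfkbiz, list members at least 2-fold apart or else the 2 furthest apart, measured IRG and GBP relatives, fixed genes of the interferon gamma pathway, cluster neighbours and the 3 nearest in pattern; others were named after their values were seen, and melanocyte, muscle and red blood cell markers are given as counts. R 4.3.3 with limma 3.58.1 and Python 3.11.15 (numpy 2.4.6, pandas 2.3.3, matplotlib 3.10.9) were used.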

Additional observations from a re-analysis of the deposited data

How the results depend on the processing

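With 1 array per group, no array could be left out and signal over background limits the dim genes. The count of GTPases at least 2-fold higher was 4 under each scaling, background correction, probe rule and fold threshold tried. It was 5 with the dim genes at their bounds and 8 with no filter on dim probes, where signals not well above background enter as they are. Their median of 2.19 became 2.54 under median scaling and 1.76 under normexp, and with Irgm1 read by its other probe, an alternative chosen after seeing the data, it stayed at 2.19. The 370 genes at least 2-fold higher became 1009 under median scaling, 176 under normexp and 664 with no filter, and 1241 at 1.5-fold and 103 at 3-fold. Of genes 2-fold apart, 40.04% were higher, against 78.1% under median scaling and 48.7% under quantile normalization. Nfkbiz moved from -1.04 to -0.70 under median scaling. List medians changed sign under at least 1 scaling for autophagy, inflammasome, large GTPase, keratinocyte, monocyte and macrophage, and fibroblast genes. Under normexp the medians were -0.10 for endothelial markers, -1.26 for melanocyte, -1.17 for skeletal muscle, -2.52 for red blood cell and 0.47 for T and NK cell markers. No paired analysis was possible because each group holds 1 array. Why normexp and quantile normalization moved these values was not tested.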

Other observations

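Genes that work with IRG and GBP proteins were mostly within 2-fold, as were most of all genes (2.98% were 2-fold higher and 4.46% lower). Of 12 autophagy conjugation and ubiquitin factors, which direct the GTPases to vacuoles, 1 was past 2-fold: the ubiquitin ligase Trim21, with 121 against 33.2 (3.11-fold). Traf6, another ubiquitin ligase, had 617 against 268 (log2 difference 0.98). The conjugation genes Atg3, Atg5, Atg7, Atg12 and Atg16l1 lay between -0.28 and -0.03, and the list's median was -0.12, or 0.23 under median scaling. Over all their measured probes, Atg3 lay between -0.18 and 0.26 and Atg12 between -0.73 and -0.28. Of 5 inflammasome and pyroptosis genes measured on both arrays 0 were 2-fold apart (median -0.07, or 0.28 under median scaling and 0.06 under normexp). Gsdmd and Casp1 each differed by 0.32 and Casp4, which senses the lipopolysaccharide that GBP proteins expose, by -0.19.

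The 5 enzymes that attach and finish the lipid anchor of prenylated proteins had a median of 0.12, with Fnta at 301 against 151 (0.77) and Icmt at 878 against 464 (0.69). The median is the value of Fntb, whose other probe gave -0.36. Large GTPases that act on membranes without interferon gave a median of -0.03 over 8 genes, or 0.32 under median scaling. Atl1 was furthest above at 0.77 and Mfn2 furthest below at -0.41. No gene of these last lists was 2-fold apart, where 2.98% of all genes were 2-fold higher and 4.46% lower.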
